A study of Mus musculus with 12 samples.

Results

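Cells carrying the shRNA named VEGF-up were set against cells carrying the shRNA named VEGF-down, on 4 arrays each, 8 of the 12 arrays of the study, across all 17306 probe sets that are not controls. Each probe set stands for 1 gene. C166 is a mouse cell line derived from yolk sac and labelled as endothelial. The VEGF-up cells were transduced with a lentiviral vector for GFP and an shRNA that raises VEGF-A expression according to the labels. The VEGF-down cells received the same kind of vector with GFP and an shRNA that lowers it. The remaining 4 arrays are of cells that received the vector with GFP alone; they share the transduction and the marker with both shRNA groups, took no part in the tests below and are given as context. All cells were transduced at 20% confluency and a multiplicity of infection of 10, received fresh medium after 72 h, were collected on day 7 and were over 99% GFP-positive. Nothing in the labels tells whether the 4 replicates of a group came from separate cultures or transductions, and the p-values therefore cover the spread among these samples alone, which may be technical. Each shRNA is 1 sequence, so what belongs to the level of Vegfa and what belongs to the shRNA sequence cannot be told apart.

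VEGF-A is a secreted growth factor that binds the receptor tyrosine kinases VEGFR1 (Flt1) and VEGFR2 (Kdr), with neuropilins as co-receptors, and VEGFR2 carries most of its signal for growth, migration and survival in endothelial cells. Small RNAs complementary to a promoter can lower or raise transcription of that gene, through changes in chromatin or through RNA transcribed across the promoter. ATF4, named often below, is a transcription factor whose translation increases when the initiation factor eIF2 is phosphorylated, as in amino acid shortage or endoplasmic reticulum stress; its targets include enzymes that make amino acids, transporters that import them and enzymes that load them onto tRNAs.

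The shRNAs were aimed at the promoter of Vegfa, on the minus strand of mouse chromosome 17. The 250 bases before an annotated start of the gene are printed because the shRNAs were directed at this promoter; the target sites and the shRNA sequences are not given in the sources used here, and the window need not hold them. Capitals mark the GC box GGGCGG, the letters that the factor Sp1 binds, searched on both strands. The sequence is RefSeq's, assembly GRCm38.p6, 5′ to 3′ on the gene's strand.
Vegfa, chr17:46032378-46032627 (minus strand): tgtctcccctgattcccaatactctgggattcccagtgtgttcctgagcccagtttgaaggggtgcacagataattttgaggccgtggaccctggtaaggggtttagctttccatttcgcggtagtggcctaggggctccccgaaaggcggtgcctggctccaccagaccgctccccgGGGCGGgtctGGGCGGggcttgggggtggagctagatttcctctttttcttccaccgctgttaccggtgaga
The window holds 2 GC boxes. It was taken as the first annotated window of the gene that holds any, so their presence is not a result. Of 27025 genes with such a window, 35.4% hold at least 1.

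The groups were cleanly separated. Correlations across probe sets between arrays of the same group lay between 0.99907 and 0.99946, and between arrays of different groups from 0.99236 to 0.99291. A principal component analysis of the 8 arrays put 86.9% of the variance on its first component, which divided the groups. The median intensity of an array lay between 35.6 and 35.8 in VEGF-up and between 36.4 and 37.1 in VEGF-down cells. Between 62.6% and 62.8% of probe sets in VEGF-up and between 62.8% and 63.1% in VEGF-down cells were above the background level, a log2 intensity of 3.07, which is the 95th percentile of 65 chemosensory receptor genes. All levels below are log2 intensities as the authors normalised them, and all differences are VEGF-up minus VEGF-down on the same scale, with the standard error (SE) of the limma fit. A value that follows a gene's name as x ± y is this difference with its SE, and group levels are given as mean ± SD of 4 arrays. Where centring each array on its median, or scaling it to the poly-A RNAs spiked into each sample, moved the share of rises among a list's calls by over 10 percentage points, the rises and falls so obtained follow in parentheses as centred and spike-in. "Rose" and "fell" are used for genes with a Benjamini-Hochberg adjusted p under 0.05 over all 17306 probe sets. Of all probe sets, 15.1% rose and 15.4% fell, and the counts of every list below stand beside these shares. RNA came from bulk cultures, in which a smaller number of cells of a kind and less RNA per cell cannot be told apart.

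The cell type label was checked against marker genes. Of 30 measured endothelial markers, 18 averaged no more than the background level over the 8 arrays. Among them were surface and adhesion genes of the endothelium. Pecam1 was at 2.43 ± 0.005 in VEGF-up and 2.42 ± 0.01 in VEGF-down cells (SD, n = 4 each). Cdh5, which encodes VE-cadherin, was at 2.60 ± 0.01 in VEGF-up and 2.60 ± 0.005 in VEGF-down cells. The angiopoietin receptor genes stood as low, Tek at 2.78 ± 0.04 in VEGF-up and 2.73 ± 0.03 in VEGF-down cells and Tie1 at 2.15 ± 0.01 in VEGF-up and 2.15 ± 0.003 in VEGF-down cells. Emcn, Eng and Vwf were at background too, with no array above 2.38. Other members of the list were above background. Procr, the protein C receptor gene, was at 8.91 ± 0.05 in VEGF-up and 9.63 ± 0.04 in VEGF-down cells, and Cd34 at 8.45 ± 0.14 in VEGF-up and 8.75 ± 0.11 in VEGF-down cells. Egfl7, a secreted factor gene, was at 6.65 ± 0.32 in VEGF-up and 6.07 ± 0.02 in VEGF-down cells, and the transcription factor gene Gata2 at 7.18 ± 0.06 in VEGF-up and 7.72 ± 0.10 in VEGF-down cells. The endothelial nitric oxide synthase gene Nos3 was at 4.90 ± 0.03 in VEGF-up and 5.13 ± 0.26 in VEGF-down cells, the sphingosine phosphate receptor gene S1pr1 at 5.89 ± 0.02 in VEGF-up and 5.92 ± 0.05 in VEGF-down cells and Fli1 at 5.59 ± 0.01 in VEGF-up and 5.57 ± 0.05 in VEGF-down cells. Values of Fli1 in VEGF-up cells were near-constant (SD 0.006), and whether they are a floor of its own probe set was not tested. Kdr, which is not in this list, was above background in both groups, with values given below. Of the list as a whole, 3 of 30 measured members rose and 5 fell (19 and 5 centred, 20 and 4 spike-in), against 15.1% and 15.4% of all probe sets. Of 15 mesothelial markers, 0 had a mean over the 8 arrays at background, though Krt8 was at background in VEGF-up cells. Upk3b was at 11.61 ± 0.04 in VEGF-up and 12.07 ± 0.02 in VEGF-down cells, Gpm6a at 11.78 ± 0.02 in VEGF-up and 12.002 ± 0.02 in VEGF-down cells and Wt1, a transcription factor gene, at 10.13 ± 0.003 in VEGF-up and 10.23 ± 0.10 in VEGF-down cells. The mean level of the endothelial list ran from 3.77 to 3.79 over the VEGF-up arrays and from 3.77 to 3.84 over the VEGF-down arrays, and that of the mesothelial list from 8.47 to 8.51 over the VEGF-up arrays and from 9.23 to 9.26 over the VEGF-down arrays. Of 13 blood cell and macrophage markers, 9 were at background, Ptprc and Adgre1 among them. The endotoxin receptor gene Cd14 was bright, at 8.54 ± 0.11 in VEGF-up and 9.42 ± 0.06 in VEGF-down cells, and Csf1r was at 6.32 ± 0.07 in VEGF-up and 6.57 ± 0.05 in VEGF-down cells, both lower in VEGF-up cells by the test (for Csf1r, adjusted p = 0.0967 with spike-in scaling). Cd68, at 4.71 ± 0.25 in VEGF-up and 4.52 ± 0.40 in VEGF-down cells, and Fcgr3, at 4.15 ± 0.05 in VEGF-up and 4.30 ± 0.17 in VEGF-down cells, were above background and did not pass it. The endothelial markers were thus partly at background and partly above it in both groups, and the cells are called C166 cells here.

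**Figure D1:**
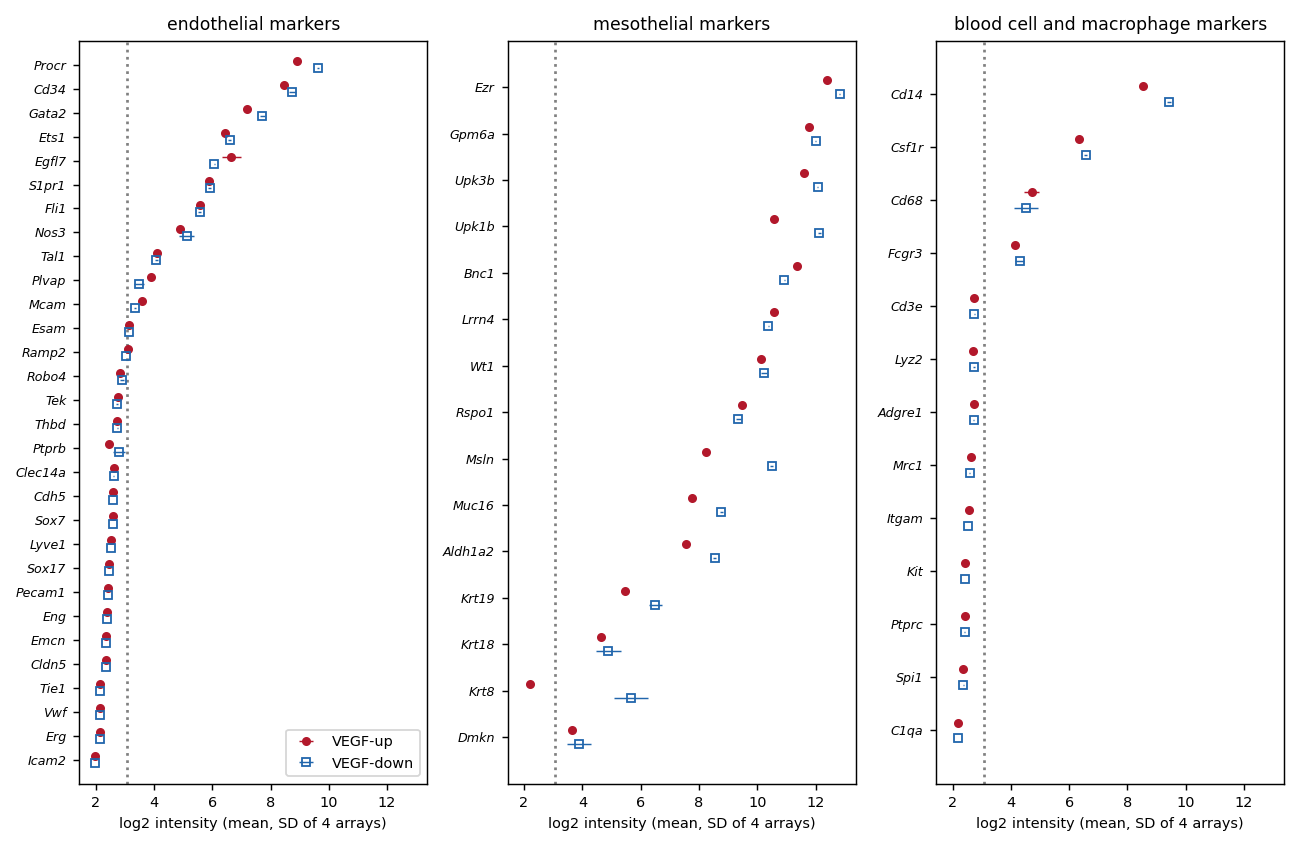
Mean log2 intensity of each measured marker gene (horizontal axis) with the SD of 4 arrays, for VEGF-up (filled circles) and VEGF-down cells (open squares), in 3 lists; the dotted line is the background level of 3.07. Pecam1, Cdh5, Tek and Tie1 lie left of the line in both groups, and Upk3b, Gpm6a and Wt1 lie above 10.

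The gene for the targeted growth factor differed in the direction that the group names say. Vegfa read 7.35, 7.66, 7.68 and 7.48 on the VEGF-up arrays, against 6.46, 6.61, 6.54 and 6.55 on the VEGF-down arrays. All VEGF-up arrays were above all VEGF-down arrays; the arrays of the groups did not overlap, in one direction or the other, for 32.8% of all probe sets. The difference was 1.004 ± 0.08 (SE, n = 4 each, limma adjusted p = 2.90e-05), or 2.01-fold, and the exact two-sided permutation test gave p = 0.0286, the smallest that 4 arrays against 4 allow. GFP arrays read 7.15, 7.37, 7.13 and 7.15, with a mean of 7.20 between the means of the shRNA groups. They overlapped the VEGF-up arrays and lay above all VEGF-down arrays. VEGF-up cells were not tested against GFP cells here.

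Kdr and the neuropilin genes were lower in VEGF-up cells. Kdr, the gene for VEGFR2, read 5.20, 5.42, 5.75 and 5.51 on the VEGF-up arrays, against 8.22, 8.35, 8.31 and 8.30 on the VEGF-down arrays. Every VEGF-up array lay below every VEGF-down array. Kdr was 7.1-fold lower in VEGF-up cells (log2 difference -2.83 ± 0.11, adjusted p = 6.54e-07); its mean in GFP cells was 4.96, close to the VEGF-up level. Nrp1, the co-receptor neuropilin 1, read 9.53, 9.56, 9.54 and 9.54 on the VEGF-up arrays, against 10.66, 10.58, 10.49 and 10.54 on the VEGF-down arrays. These groups did not overlap either, and the difference was -1.02 ± 0.03. Nrp2 fell by 0.55 ± 0.05. The other ligands did not pass the test. Vegfb was at 7.82 ± 0.08 in VEGF-up and 7.86 ± 0.002 in VEGF-down cells, Vegfc at 9.25 ± 0.05 in VEGF-up and 9.26 ± 0.02 in VEGF-down cells, Vegfd at 6.20 ± 0.07 in VEGF-up and 6.29 ± 0.04 in VEGF-down cells and Pgf, the placental growth factor gene, at 4.10 ± 0.01 in VEGF-up and 4.05 ± 0.09 in VEGF-down cells. Neither did the receptors Flt1, at 3.40 ± 0.15 in VEGF-up and 3.28 ± 0.01 in VEGF-down cells, and Flt4, at 3.44 ± 0.01 in VEGF-up and 3.60 ± 0.14 in VEGF-down cells, both close to the background level. Of the VEGF genes, 1 of 10 measured members rose and 3 fell (1 and 3 centred, 3 and 3 spike-in), against 15.1% and 15.4% of all probe sets.

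**Figure D2:**
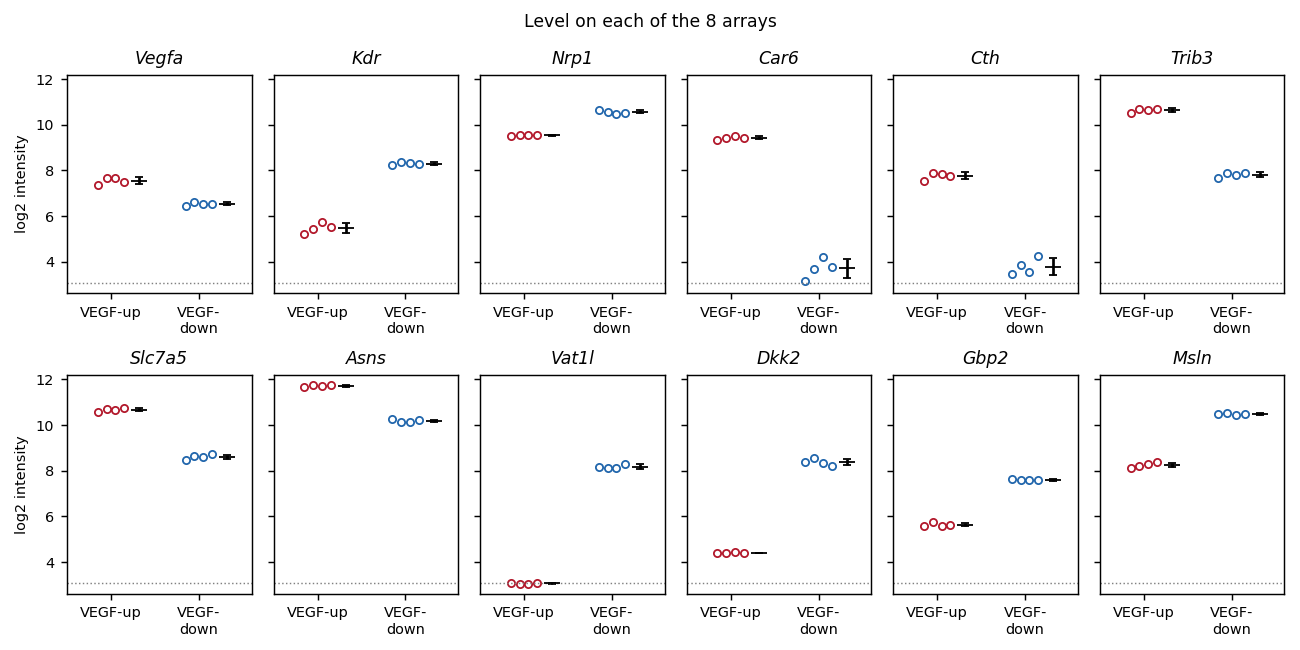
Log2 intensity (vertical axis) of 12 genes on each array, VEGF-up left in red and VEGF-down right in blue; open circles are arrays, black bars the mean with SD, and the dotted line is the background level. In each panel the 4 arrays of one group lie apart from the 4 of the other, by the least in Vegfa and Nrp1 and by the most in Car6 and Vat1l.

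In the list of VEGF-responsive and endothelial tip cell genes, 7 of 22 measured members rose and 2 fell (17 and 2 centred, 18 and 2 spike-in). Over all probe sets 15.1% rose and 15.4% fell. The transcription factor genes Egr1, 0.47 ± 0.03, Egr2, 0.60 ± 0.05, and Klf4, 0.90 ± 0.09, rose with Rnd1, a small GTPase gene, 1.43 ± 0.11. Fos, an immediate-early gene, fell, -1.51 ± 0.07, as did Igfbp3, which encodes a carrier of insulin-like growth factors, -1.24 ± 0.02. Among the genes on either side of Vegfa, 10 in each direction, 4 of 19 measured members rose and 2 fell (9 and 2 centred, 13 and 1 spike-in), against the same shares of all probe sets. Gtpbp2, a GTP-binding protein gene, rose by 0.80 ± 0.03 and lies 4 genes away. Nfkbie, which encodes an inhibitor of NF-kB, fell, -0.63 ± 0.04, and lies 9 genes away on the other side. Mrps18a, the nearest on the first side, did not pass the test, at 9.26 ± 0.07 in VEGF-up and 9.18 ± 0.03 in VEGF-down cells.

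Across the array, 5270 of 17306 probe sets differed, 30.5%. Of these 2606 rose in VEGF-up cells (15.1% of those tested) and 2664 fell (15.4%). The differences were mostly small, with a median size of 0.32 among those called. At least 2-fold, 179 rose and 221 fell, 2.31% of those tested together; at least 4-fold, 25 rose and 34 fell. The arrays of the groups did not overlap for 5674 probe sets, of which 5096 were also called. When levels were instead scaled to the poly-A RNAs spiked into each sample, the median of all probe sets moved by 0.12 and 85.5% of the calls were higher in VEGF-up cells, against 49.4% as the authors normalised them; with median centring the median moved by 0.04 and the share was 79.2%. Differences below about these sizes therefore have no settled direction. The mean of the GFP cells was nearer to that of VEGF-up than to that of VEGF-down cells for 3978 of the 5270 called probe sets, and for 355 of the 400 that differed at least 2-fold. The GFP arrays took no part in calling them.

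**Figure D3:**
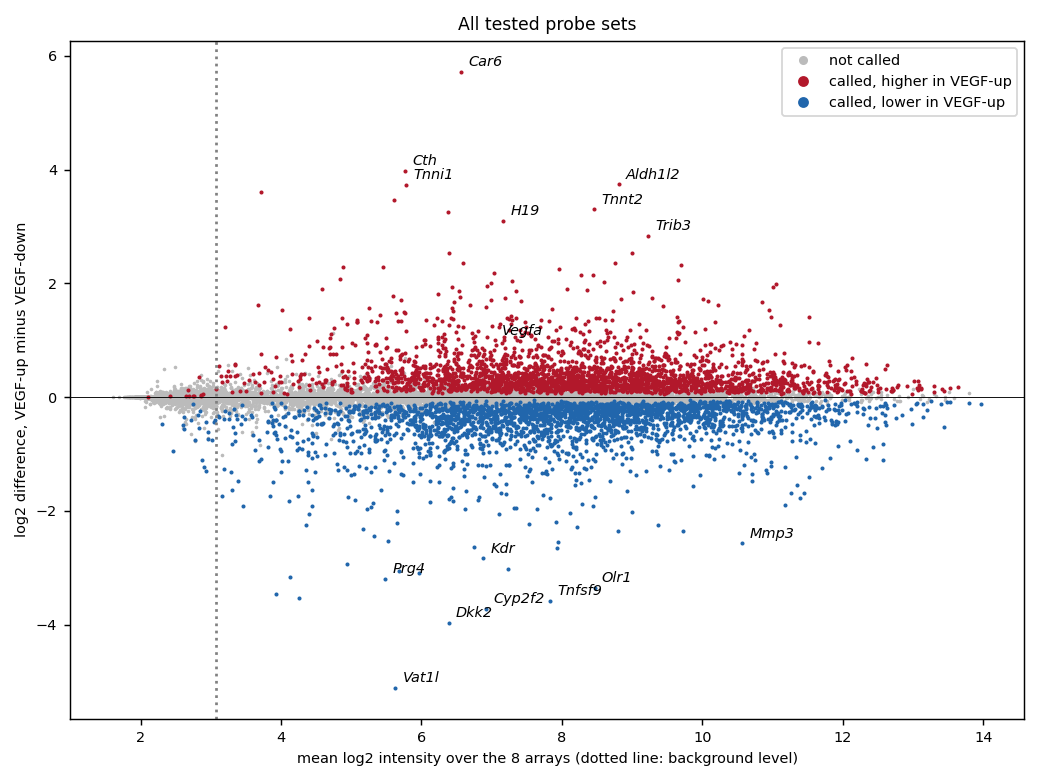
Log2 difference, VEGF-up minus VEGF-down (vertical axis), against the mean log2 intensity over the 8 arrays (horizontal axis) for all 17306 probe sets; red and blue points are called higher and lower in VEGF-up cells, grey points are not called, and the dotted line is the background level. Car6 and Vat1l lie farthest from 0, and the differences narrow towards the background level.

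The largest rises joined amino acid enzymes, a secreted carbonic anhydrase and muscle troponins. Car6, which encodes the secreted carbonic anhydrase VI known from saliva, read 9.35, 9.44, 9.51 and 9.42 in VEGF-up cells, against 3.17, 3.69, 4.19 and 3.77 in VEGF-down cells. The VEGF-down arrays stood just above background and the VEGF-up arrays far above it. The difference was 5.72 ± 0.19 (52.9-fold, adjusted p = 3.98e-07). Cth, which makes cysteine from cystathionine, read 7.55, 7.89, 7.86 and 7.75 in VEGF-up cells, against 3.44, 3.86, 3.55 and 4.27 in VEGF-down cells. The difference was 3.98 ± 0.18 (15.8-fold). Aldh1l2, the mitochondrial 10-formyltetrahydrofolate dehydrogenase, rose 13.4-fold, at 10.68 ± 0.03 in VEGF-up and 6.94 ± 0.01 in VEGF-down cells. Tnni1, slow skeletal troponin I, rose 13.3-fold and Tnnt2, cardiac troponin T, 9.9-fold, at 10.11 ± 0.09 in VEGF-up and 6.81 ± 0.16 in VEGF-down cells. Angptl6, an angiopoietin-like secreted protein gene, rose 11.1-fold, and Cdsn, a corneodesmosome protein gene, 9.56-fold. H19, an imprinted noncoding RNA that is expressed from the maternal allele, rose 8.57-fold, at 8.71 ± 0.12 in VEGF-up and 5.61 ± 0.01 in VEGF-down cells; GFP cells were higher still, at 10.28. Ly6e, a GPI-anchored surface protein gene, was at background in VEGF-down cells and at least 5.45-fold higher in VEGF-up cells.

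The remaining rises of this size were spread over several functions. The matrix genes Lum, for the collagen-binding proteoglycan lumican (2.53 ± 0.12), and Postn, for periostin (2.37 ± 0.07), rose with Ptx3, a secreted pentraxin gene (2.26 ± 0.09). Agtr1a, the angiotensin II receptor gene, rose by 2.28 ± 0.10 and Sema3d, a secreted semaphorin gene, by 2.19 ± 0.05. Osgep, a gene for tRNA modification, rose by 2.36 ± 0.25, Cyb5r1, a cytochrome b5 reductase gene, by 2.32 ± 0.05, Ptchd1, a patched-domain membrane protein gene, by 2.29 ± 0.12, and Tmem242, a membrane protein gene, by 2.15 ± 0.06. Trib3 and Psph, also of this group, are described with the ATF4 and serine genes below.

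Among the largest falls were secreted Wnt and hedgehog inhibitors, keratins and enzymes of xenobiotic metabolism. Vat1l, a gene of the quinone oxidoreductase family, read 3.10, 3.05, 3.05 and 3.09 in VEGF-up cells, against 8.16, 8.14, 8.11 and 8.32 in VEGF-down cells. The VEGF-up mean was at background and the VEGF-down arrays were bright, so Vat1l was at least 34.3-fold lower in VEGF-up cells (fitted difference -5.11 ± 0.05, adjusted p = 1.31e-09). Dkk2, a secreted antagonist of Wnt signalling, read 4.41, 4.40, 4.42 and 4.40 in VEGF-up cells, against 8.37, 8.55, 8.35 and 8.21 in VEGF-down cells. It was 15.6-fold lower in VEGF-up cells. Hhip, which encodes a membrane protein that binds hedgehog ligands, was 7.59-fold lower, at 3.48 ± 0.005 in VEGF-up and 6.41 ± 0.07 in VEGF-down cells. Above the background level, values were near-constant for Dkk2, Hhip and Ces1f in VEGF-up cells (SD 0.008, 0.005 and 0.009). The same held for Angptl6 and H19 in VEGF-down cells (SD 0.003 and 0.007). Whether these values are floors of their own probe sets was not tested, and their folds may be lower bounds. Krt76 and Krt8, keratin genes of epithelia, were at background in VEGF-up cells and at least 7.72-fold and 5.99-fold lower there. Slco1a5, an organic anion transporter gene, was also at background in VEGF-up cells and at least 6.23-fold lower.

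Cyp2f2, a cytochrome P450 gene of lung and liver, was 13.2-fold lower in VEGF-up cells, at 5.05 ± 0.15 in VEGF-up and 8.77 ± 0.12 in VEGF-down cells. Tnfsf9, the ligand of the costimulatory receptor 4-1BB, was 12-fold lower and Olr1, the scavenger receptor for oxidised LDL, 10.2-fold lower. Prg4, for the lubricating proteoglycan of joints and serosal surfaces, fell by 3.19 ± 0.08, and Slc2a3, the glucose transporter GLUT3, by 3.05 ± 0.02. The carboxylesterase genes Ces1g, -3.02 ± 0.15, and Ces1f, -2.53 ± 0.05, and the major urinary protein gene Mup5, -2.43 ± 0.08, belong to clusters of near-identical copies, and whether their probes also bind RNA of those copies was not tested. Fxyd3, a regulator of the sodium pump, -3.10 ± 0.12, Pla2g7, which hydrolyses platelet-activating factor, -2.66 ± 0.07, Serpinb7, -2.64 ± 0.05, the stromelysin gene Mmp3, -2.56 ± 0.05, and Arhgef26, a guanine nucleotide exchange factor gene, -2.54 ± 0.04, complete the 20. For the 20 largest falls the GFP mean was nearer to VEGF-up than to VEGF-down cells in 20, and for the 20 largest rises in 19, the exception being Cdsn. Adjusted p over these 40 genes ran from 6.87e-11 to 0.000192.

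Genes of the ATF4 response and of amino acid supply rose together. Over 5 lists of such genes, 54 of 77 measured members rose and 9 fell, with a median difference of 0.68, against 15.1% and 15.4% of all probe sets and a median of 0.0012. In the list of ATF4, its partners and its feedback genes, 15 of 17 measured members rose and 0 fell, with a median of 0.88. Trib3, a pseudokinase that restrains ATF4, read 10.53, 10.69, 10.65 and 10.69 in VEGF-up cells, against 7.65, 7.89, 7.80 and 7.88 in VEGF-down cells. It was 7.14-fold higher (adjusted p = 5.74e-08). Atf4 itself rose by 0.68 ± 0.02 and its partner or relative genes Atf5 by 1.34 ± 0.04, Atf3 by 1.397 ± 0.06 and Ddit3, for the stress factor CHOP, by 0.91 ± 0.04. Fgf21, a secreted metabolic hormone gene, rose by 1.81 ± 0.15, Eif4ebp1, an inhibitor of cap-dependent translation, by 1.62 ± 0.06, Sesn2, a leucine sensor upstream of mTORC1, by 1.18 ± 0.06, and Chac1, which degrades glutathione, by 1.03 ± 0.04. Ppp1r15a, which directs eIF2 dephosphorylation, rose by 0.88 ± 0.08. Nupr1 and Eif2ak3, the gene of the kinase PERK, were the 2 members that did not pass the test.

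Most enzymes of serine synthesis and one-carbon metabolism rose. Of 15 measured, 9 rose and 3 fell, against 15.1% and 15.4% of all probe sets. Psph, 2.54 ± 0.04, and Psat1, 1.41 ± 0.04, which complete serine synthesis from 3-phosphoglycerate, rose, and Phgdh, which begins it, rose by 0.28 ± 0.07, with an adjusted p of 0.0232 that reached 0.0665 when single arrays were left out. The mitochondrial folate enzymes Mthfd2, 1.603 ± 0.04, Shmt2, 0.997 ± 0.04, and Aldh1l2 rose, but Mthfd2l, also mitochondrial, fell, -0.35 ± 0.09. Of the cytosolic folate enzymes, Shmt1 rose, 0.35 ± 0.04, and Mthfd1, -0.38 ± 0.04, and Aldh1l1, -0.61 ± 0.08, fell. In the list of asparagine, proline and branched-chain enzymes, 6 of 11 measured members rose and 2 fell. Asns, asparagine synthetase, read 11.65, 11.76, 11.72 and 11.75 in VEGF-up cells, against 10.26, 10.12, 10.15 and 10.20 in VEGF-down cells, a 2.9-fold rise with no overlap. Gpt2, the mitochondrial alanine transaminase, rose by 1.75 ± 0.02 and Aldh18a1, which starts proline synthesis, by 1.19 ± 0.04. Glul, glutamine synthetase, fell, -0.998 ± 0.03, and so did Glud1, glutamate dehydrogenase, -0.61 ± 0.04.

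Most transporters and tRNA synthetases measured rose as well, against 15.1% of all probe sets that rose and 15.4% that fell. Slc7a5, the large neutral amino acid transporter LAT1, read 10.57, 10.71, 10.68 and 10.76 in VEGF-up cells, against 8.49, 8.63, 8.62 and 8.72 in VEGF-down cells. It rose 4.19-fold with no overlap, and its partner chain Slc3a2 rose by 0.85 ± 0.04. The glutamine transporters Slc38a1, 1.28 ± 0.02, and Slc1a5, 1.16 ± 0.06, rose, as did the cystine transporter Slc7a11, 0.89 ± 0.17. Slc38a4, -1.12 ± 0.07, and Slc7a2, -0.33 ± 0.03, fell; in all, 9 of 15 measured members rose and 3 fell. Among the tRNA synthetases, 15 of 19 measured members rose and 1 fell, with a median of 0.71; under spike-in scaling and median centring none fell. Iars, for isoleucine, rose by 1.69 ± 0.05, Eprs, for glutamate and proline, by 1.18 ± 0.04, Aars, for alanine, by 1.15 ± 0.07, Wars, for tryptophan, by 1.13 ± 0.05, and Gars, for glycine, by 0.94 ± 0.03. In the list of endoplasmic reticulum chaperones and folding genes, 12 of 21 measured members rose and 1 fell, with a median of 0.14. Ero1a, the oxidase that forms disulfide bonds, rose by 1.85 ± 0.03, Pdia4, a disulfide isomerase, by 0.73 ± 0.05 and Herpud1, of the degradation machinery, by 0.59 ± 0.04, whereas the main chaperone Hspa5 rose by 0.32 ± 0.02. Dnajb9, a cochaperone that the factor XBP1 induces, fell, -0.18 ± 0.03; with spike-in scaling that difference did not pass the test.

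**Figure D4:**
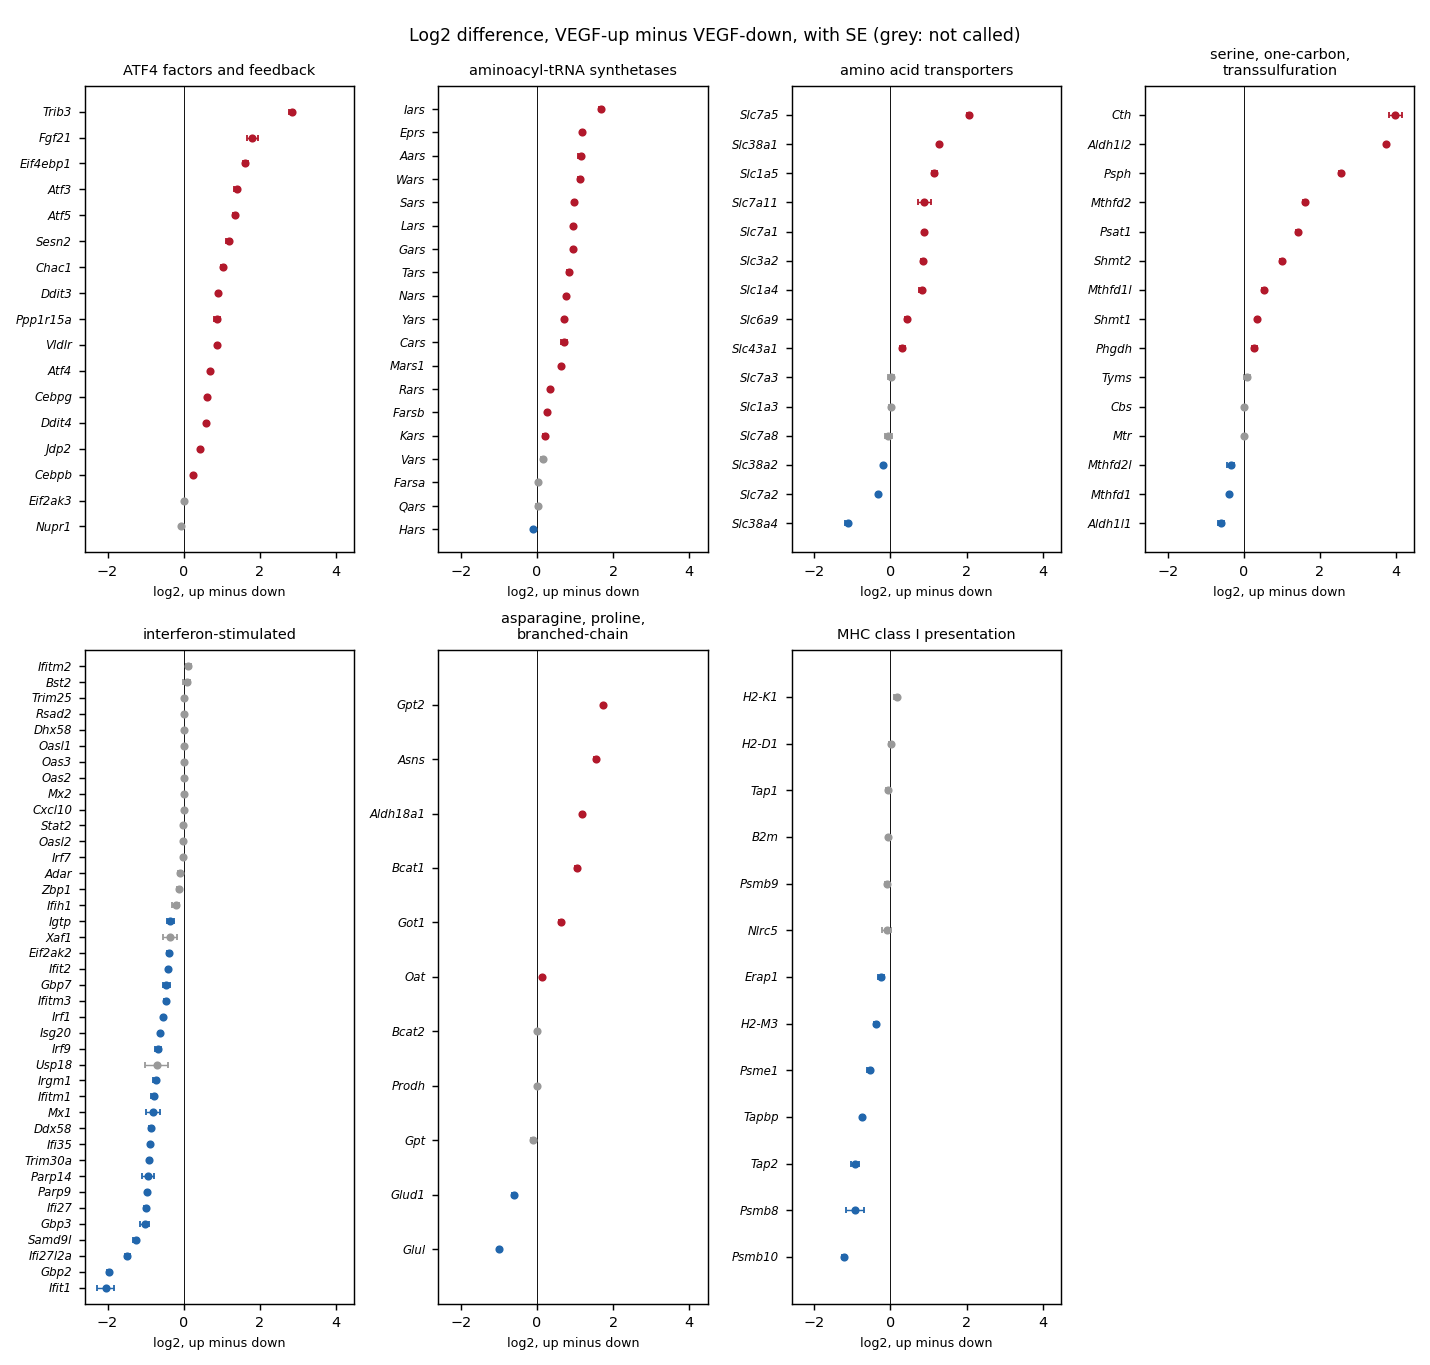
Log2 difference, VEGF-up minus VEGF-down (horizontal axis), with the SE of the fit for every measured member of 5 amino acid lists, the interferon-stimulated genes and the MHC class I genes; red, called higher; blue, called lower; grey, not called. Trib3, Cth and Aldh1l2 lie farthest right, and Ifit1 and Gbp2 farthest left.

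The promoters of these genes were searched for the C/EBP-ATF response element, the composite site that ATF4 with a C/EBP partner binds, written TGATGNAA, on both strands of the 250 bases before the start. It was present in 11 of the 43 risen genes of the 5 lists that had a promoter entry, 25.6%, against 3.91% of 27025 genes. Over all measured members with an entry, risen or not, it was present in 12 of 61, 19.7%. Trib3 had an entry and no match. The lists were written to hold genes of the ATF4 response and amino acid supply, so the share of all genes is not a neutral comparison. The narrower form TGATGCAA was present in 9 of the 43, 20.9%, and in 10 of the 61, 16.4%, against 0.918% of all genes. The forms overlap, as every narrow match is also a wide one, and both were chosen with the results known. Windows of 60 bases around the first match in 5 of these genes are printed for comparison, with the match in capitals (TTGCATCA is the narrow form read on the other strand), from RefSeq, assembly GRCm38.p6.
Chac1, chr2:119351023-119351082 (plus strand): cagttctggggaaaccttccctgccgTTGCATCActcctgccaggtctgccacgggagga
Atf3, chr1:191183410-191183469 (minus strand): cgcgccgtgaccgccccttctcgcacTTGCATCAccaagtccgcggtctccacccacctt
Fgf21, chr7:45615596-45615655 (minus strand): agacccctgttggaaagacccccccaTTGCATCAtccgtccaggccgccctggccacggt
Aars, chr8:111033704-111033763 (plus strand): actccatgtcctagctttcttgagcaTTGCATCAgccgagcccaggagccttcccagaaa
Asns, chr6:7693210-7693269 (minus strand): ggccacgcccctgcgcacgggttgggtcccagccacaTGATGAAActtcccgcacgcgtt
The first match ends 16 bases before the start in Asns, 103 in Atf3, 105 in Aars, 132 in Fgf21 and 186 in Chac1. Chac1, Atf3, Fgf21 and Aars share the same 8 letters, and Asns has the wider form. A match is a description of the sequence and does not show that a factor was bound.

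In the list of interferon-stimulated genes, 22 of 40 measured members were lower in VEGF-up cells and 0 were higher, against 15.4% and 15.1% of all probe sets. The other 18 did not pass the test. The median was -0.44, and 11 had a mean at background. Median centring added 8 rises and spike-in scaling 10, each under 0.25, while 22 and 23 fell. The list does not hold every gene that interferons induce. Ly6e, another such gene, is not in it and was at least 5.45-fold higher in VEGF-up cells, as given above. Gbp2, a guanylate-binding protein of the interferon gamma response, read 5.60, 5.75, 5.58 and 5.64 in VEGF-up cells, against 7.66, 7.59, 7.59 and 7.57 in VEGF-down cells. It was 3.9-fold lower with no overlap (adjusted p = 4.80e-08). Ifit1, which binds viral RNA ends, read 3.89, 3.48, 2.82 and 3.28 in VEGF-up cells, against 5.13, 5.49, 5.67 and 5.40 in VEGF-down cells. The VEGF-up arrays were close to background and more scattered, and the difference was -2.05 ± 0.22. Ifi27l2a, -1.49 ± 0.06, Samd9l, -1.26 ± 0.07, and the viral RNA sensor gene Ddx58, for RIG-I, -0.86 ± 0.05, fell. So did the transcription factor genes Irf9, -0.68 ± 0.08, and Irf1, -0.54 ± 0.02. Bst2, the tether of budding virus, at 7.07 ± 0.17 in VEGF-up and 6.99 ± 0.12 in VEGF-down cells, and Rsad2, viperin, at background with 2.68 ± 0.01 in VEGF-up and 2.68 ± 0.01 in VEGF-down cells, were among those that did not pass. Among the fallen genes named in this paragraph, the GFP mean was nearer to VEGF-up cells for Gbp2 (5.94), Ifit1 (4.25), Samd9l, Ddx58 and Irf9. It was nearer to VEGF-down cells for Irf1 (9.37) and Ifi27l2a (6.145).

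In the list of MHC class I antigen presentation, 0 of 13 measured members rose and 7 fell (1 and 7 centred, 2 and 6 spike-in). Of all probe sets 15.1% rose and 15.4% fell. In this list 6 members did not pass the test. Among those were the class I heavy chain genes H2-K1, at 9.60 ± 0.15 in VEGF-up and 9.44 ± 0.06 in VEGF-down cells, and H2-D1, at 9.57 ± 0.07 in VEGF-up and 9.56 ± 0.06 in VEGF-down cells, and their light chain gene B2m, at 12.77 ± 0.01 in VEGF-up and 12.83 ± 0.05 in VEGF-down cells. The immunoproteasome subunit Psmb10 fell, -1.22 ± 0.04, as did its activator Psme1, -0.54 ± 0.07, the peptide transporter Tap2, -0.93 ± 0.11, and its docking protein Tapbp, -0.74 ± 0.04. The interferon-stimulated response element, searched on both strands as GAAA, any 2 bases and GAAA, was present in 13 of 30 measured interferon-stimulated genes that had a promoter entry, 43.3%, and in 7 of the 17 that fell, 41.2%, against 3.46% of all genes. The list was written to hold interferon-stimulated genes, so the share of all genes is not a neutral comparison. The element was no more frequent among the genes that fell than among all measured members with an entry. Windows of 60 bases around the match are printed for 3 of the genes that fell, with matches in capitals as read on the gene's strand.
Ifit1, chr19:34640760-34640819 (plus strand): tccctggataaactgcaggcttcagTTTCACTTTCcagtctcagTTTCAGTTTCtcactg
Gbp2, chr3:142620579-142620638 (plus strand): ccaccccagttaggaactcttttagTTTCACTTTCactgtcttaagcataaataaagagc
Trim30a, chr7:104465195-104465254 (minus strand): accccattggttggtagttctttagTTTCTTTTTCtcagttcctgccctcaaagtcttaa
Ifit1 holds 2 matches in its window and the others 1 each.

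Other inflammatory genes were mixed, to be read beside the 15.1% of all probe sets that rose and the 15.4% that fell. Of the interleukin-6 and TNF families, 3 of 30 measured members rose and 10 fell (15 and 10 centred, 14 and 10 spike-in). Il6 fell, -1.18 ± 0.08, with the receptor genes Il6ra, -1.37 ± 0.05, and Osmr, -1.08 ± 0.04, while the shared signalling chain Il6st rose, 0.55 ± 0.03. Tnfrsf21, the death receptor DR6, -2.28 ± 0.03, and Tnfsf12, the ligand TWEAK, -1.04 ± 0.04, fell. Of the chemokines, 3 of 25 measured members rose and 6 fell (13 and 6 centred, 14 and 6 spike-in): Ccl9, -2.31 ± 0.05, Cxcl15, -1.04 ± 0.06, and Ccl2, -0.83 ± 0.03, fell and Cxcl12, 1.26 ± 0.02, rose. For Ccl2 and Cxcl15 both shRNA groups lay below the GFP cells, at 11.53 and 11.05. Saa3, an acute phase protein gene, rose by 1.98 ± 0.08. The complement proteases C1ra, -1.13 ± 0.06, and C1s1, -1.003 ± 0.07, and the endotoxin receptor genes Tlr4, -0.82 ± 0.03, and Cd14, -0.88 ± 0.06, fell. Of the NF-kB subunits and feedback genes, 4 of 18 measured members rose and 6 fell (8 and 6 centred, 7 and 6 spike-in), with a median of -0.01. Birc3, -0.91 ± 0.04, and Nfkbia, -0.38 ± 0.03, were among those that fell. Selp, the adhesion molecule P-selectin, fell, -1.93 ± 0.11, and Jam3 rose, 1.02 ± 0.05.

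In the smooth muscle and fibroblast list, 11 of 20 measured members rose and 4 fell (13 and 3 centred, 15 and 1 spike-in), with a median of 0.39. The counts in this paragraph stand beside 15.1% of all probe sets that rose and 15.4% that fell. Lmod1, 1.89 ± 0.28, Actg2, 1.67 ± 0.15, Cnn1, 1.47 ± 0.13, and Mylk, 1.29 ± 0.04, all of the contractile apparatus, rose, and S100a4, -0.93 ± 0.05, fell. In the mesothelial list, 3 of 15 measured members rose and 9 fell, with a median of -0.44. Msln, mesothelin, read 8.13, 8.20, 8.28 and 8.37 in VEGF-up cells, against 10.51, 10.53, 10.43 and 10.49 in VEGF-down cells, a 4.73-fold fall without overlap. The uroplakin gene Upk1b, -1.54 ± 0.02, the mucin gene Muc16, -1.001 ± 0.04, and the retinoic acid enzyme gene Aldh1a2, -0.98 ± 0.04, fell. Bnc1, a transcription factor gene, rose by 0.45 ± 0.04. Of the keratins, 1 of 15 measured members rose and 6 fell (7 and 6 centred, 8 and 6 spike-in), the falls including Krt14, -1.28 ± 0.04, Krt19, -1.05 ± 0.12, and Krt7, -0.73 ± 0.04. Of 29 sarcomere genes, 20 were at background. In that list 4 of 29 measured members rose and 1 fell (22 and 1 centred, 21 and 1 spike-in). These are 13.8% and 3.45%, the rises close to the share of all probe sets. Whether cells of different kinds made up different shares of the cultures was not tested.

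Matrix genes changed in both directions, as did all probe sets, of which 15.1% rose and 15.4% fell. Of the collagens, 12 of 24 measured members rose and 5 fell (17 and 4 centred, 15 and 4 spike-in): the fibrillar Col11a1, 1.34 ± 0.05, and Col1a1, 0.65 ± 0.06, and the basement membrane Col4a1, 0.74 ± 0.04, rose, whereas Col12a1, -1.05 ± 0.04, and Col8a1, -0.75 ± 0.02, fell. Loxl2, which crosslinks collagen, rose by 1.89 ± 0.03. Of the proteoglycans and matricellular genes, 12 of 33 measured members rose and 12 fell (14 and 13 centred, 15 and 9 spike-in). Aspn, asporin, 1.52 ± 0.08, and Ccn4, 1.20 ± 0.04, rose, and Ccn5, -2.35 ± 0.04, and Omd, osteomodulin, -1.95 ± 0.09, fell. Of the proteases and their inhibitors, 7 of 23 measured members rose and 11 fell. Mmp11, 1.90 ± 0.06, and collagenase Mmp13, 1.403 ± 0.07, rose while Mmp3, Mmp19, -1.27 ± 0.05, the urokinase gene Plau, -0.77 ± 0.08, and the inhibitor gene Timp1, -0.93 ± 0.04, fell. Of the integrins, 10 of 15 were at background; Itga6 fell, -0.59 ± 0.07.

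Most growth factor and developmental lists held members of either direction, as did all probe sets, of which 15.1% rose and 15.4% fell. In the FGF, PDGF and IGF list, 6 of 37 measured members rose and 17 fell (12 and 16 centred, 13 and 14 spike-in). Igf1, -1.12 ± 0.04, its receptor Igf1r, -0.76 ± 0.02, the binding protein gene Igfbp5, -1.22 ± 0.08, and Fgf18, -1.05 ± 0.07, fell, and Pdgfa, 0.79 ± 0.02, and Igf2r, the clearance receptor for IGF2, 0.56 ± 0.03, rose. In the Wnt list, 9 of 35 measured members rose and 9 fell (18 and 9 centred, 18 and 7 spike-in). Besides Dkk2, the ligand gene Wnt2 was at background in VEGF-up cells and at least 2.55-fold lower, and the receptor gene Fzd1 fell, -0.91 ± 0.04. The secreted inhibitors Sfrp2, 1.398 ± 0.08, and Frzb, 1.33 ± 0.05, and the ligand gene Wnt5a, 0.60 ± 0.05, rose. In the TGF-beta and BMP list, 7 of 39 measured members rose and 14 fell (18 and 14 centred, 20 and 12 spike-in): the activin subunits Inhba, -0.78 ± 0.04, and Inhbb, -1.64 ± 0.12, and their antagonist Fst, follistatin, -1.77 ± 0.05, fell, and Bmpr2, 0.88 ± 0.06, and Smad5, 0.73 ± 0.04, rose. Of the imprinted growth genes, 9 of 20 measured members rose and 2 fell, Peg3, 0.94 ± 0.04, and Grb10, 0.78 ± 0.03, rising with H19. In the angiopoietin and angiotensin list, 5 of 17 measured members rose and 0 fell, among them Angptl4, an inhibitor of lipoprotein lipase, 1.76 ± 0.07, and Angptl7, 1.13 ± 0.05; 10 of that list were at background. Of the guidance genes, Slit2, -1.37 ± 0.05, fell and Slit3, 0.95 ± 0.06, rose. In the whole guidance list 7 of 41 measured members rose and 7 fell (23 and 8 centred, 23 and 6 spike-in). That is 17.1% each, close to the shares of all probe sets.

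Counts for xenobiotic and lipid metabolism are to be read beside the 15.1% of all probe sets that rose and the 15.4% that fell. In the cytochrome P450 and xenobiotic list, 5 of 27 measured members rose and 17 fell, with a median of -0.32. Cyp7b1, an oxysterol hydroxylase, -1.35 ± 0.04, the efflux pump gene Abcb1b, -1.19 ± 0.08, and the epoxide hydrolase gene Ephx2, -1.09 ± 0.03, fell, and the glutathione transferase gene Gsta3 rose, 1.29 ± 0.08. Of the carboxylesterases, 0 of 11 measured members rose and 4 fell (3 and 4 centred, 3 and 4 spike-in). Lpl, lipoprotein lipase, fell, -1.10 ± 0.03. Among sterol and fatty acid enzymes, 10 of 25 measured members rose and 4 fell (13 and 4 centred, 18 and 3 spike-in): Cyp51, -0.63 ± 0.02, fell and Scd1, 0.65 ± 0.05, rose. In the hypoxia and glycolysis list, 10 of 25 measured members rose and 7 fell (17 and 7 centred, 16 and 4 spike-in). The oxygen-sensing hydroxylase gene Egln3 rose, 1.27 ± 0.03, and Pdk1, -0.75 ± 0.04, and Ndrg1, -0.81 ± 0.04, fell.

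Cell cycle differences were small. The counts stand beside 15.1% of all probe sets that rose and 15.4% that fell. Of the mitosis and spindle genes, 12 of 31 measured members rose and 1 fell, with a median of 0.11. The kinase gene Aurka rose by 0.53 ± 0.09, its activator Tpx2 by 0.55 ± 0.03 and the midzone protein gene Prc1 by 0.51 ± 0.05, while Cenpe fell, -0.32 ± 0.06. Of the replication genes, 9 of 34 measured members rose and 7 fell (13 and 7 centred, 19 and 2 spike-in), and of the p53 targets, 7 of 25 measured members rose and 7 fell (9 and 7 centred, 9 and 5 spike-in). Pmaip1, which encodes the cell death protein NOXA, rose by 1.52 ± 0.06 and Perp, a desmosome and cell death gene, fell, -1.71 ± 0.04. Cdkn1a, the cell cycle inhibitor p21, rose by 0.19 ± 0.04 (adjusted p = 0.0133, and 0.0704 with all 12 arrays in 1 fit).

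The machinery that small RNAs use was measured too. Of the RNA interference genes, 4 of 18 measured members rose and 3 fell (10 and 3 centred, 11 and 2 spike-in). These are 22.2% and 16.7%, against 15.1% and 15.4% of all probe sets. Tnrc6b, a scaffold of silencing complexes, fell, -0.68 ± 0.03, with Ago4, -0.48 ± 0.10, and Ago1 rose, 0.32 ± 0.05. Of the chromatin silencing and DNA methylation enzymes, 6 of 21 measured members rose and 3 fell (12 and 3 centred, 11 and 2 spike-in), or 28.6% and 14.3%. The Polycomb subunits Suz12, 0.52 ± 0.04, and Ezh2, 0.36 ± 0.03, and the DNA methyltransferase gene Dnmt3a, 0.34 ± 0.03, rose, and Tet2, -0.50 ± 0.10, and the H3K9 methyltransferase gene Setdb1, -0.39 ± 0.04, fell.

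**Figure D5:**
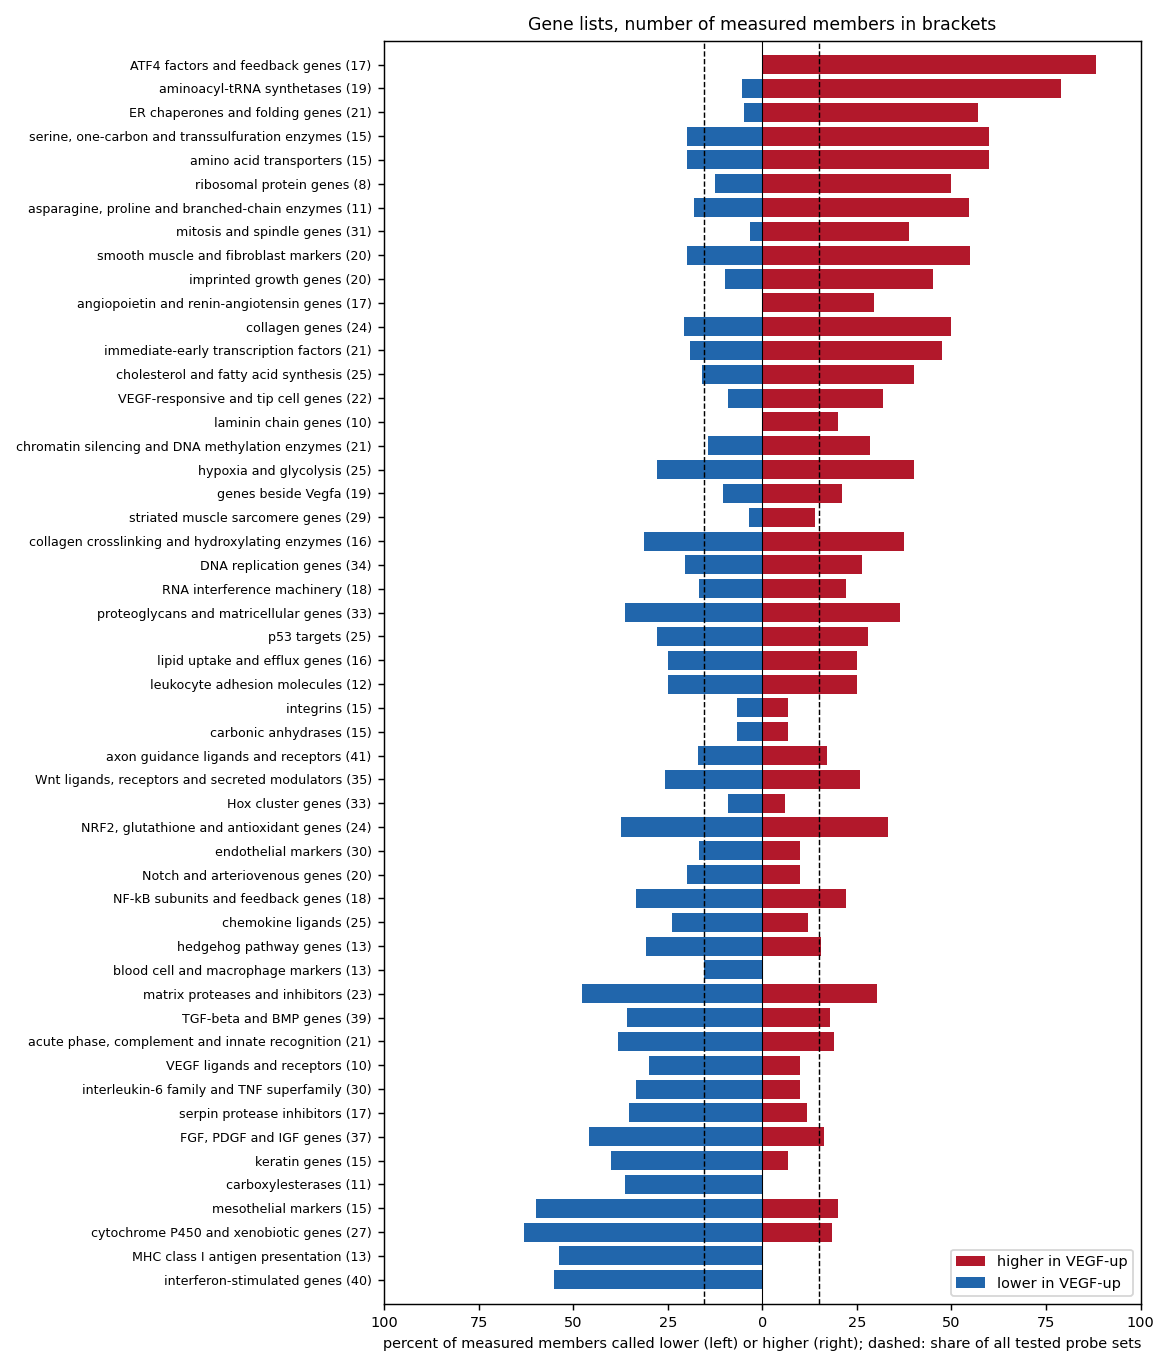
Percent of the measured members of each of the 52 gene lists (number in brackets) that were called lower (blue, to the left) or higher (red, to the right) in VEGF-up cells; dashed lines mark the shares of all tested probe sets, 15.4% and 15.1%. The ATF4 and tRNA synthetase lists have the longest bars to the right, and the cytochrome P450, mesothelial, interferon and MHC class I lists the longest to the left.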

How the data were processed

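RNA from C166 cells was labelled with biotin by the 3′ IVT method and measured on 1-colour arrays, with 4 arrays for each of the VEGF-up, VEGF-down and GFP groups; groups come from the sample titles and source names. The authors deposited 1 linear intensity per probe set and array; per the submitters' processing notes the tool was GCRMA, of unstated version. GCRMA corrects background by probe sequence and normalises quantiles, which compresses values near background. The authors' lists of changed genes were not used.

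Of 17370 probe sets, 64 controls were left out. Symbols came from the platform annotation and RefSeq (GRCm38.p6) through the Entrez number, for 16464 of 17306 probe sets; the other 842 were tested and are not named. The intensities were log2-transformed without an offset. The 8 shRNA arrays were fitted with lmFit and eBayes with a variance trend (limma 3.58.1, R 4.3.3), two-sided, with Benjamini-Hochberg adjustment over 17306 probe sets. The fit was tested on simulated data. For a gene with a group mean at or below background, or with all arrays of a group there, the fold is a lower bound: the brighter group's mean against the dimmer group's arrays, each raised to the background level. Genes named are Vegfa, the 20 largest rises and 20 largest falls among called genes with a symbol, non-overlapping arrays and a brighter mean above the median of all probe sets, and members of 52 gene lists. Members and lists were chosen with earlier results of these data known. Alternatives were all 12 arrays in 1 fit, a replicate block, no trend, quantile normalization, median centring, scaling to 24 poly-A spike-in probe sets, a background filter, an offset of 16 and each array left out. Promoter windows are the 250 bases before a start in RefSeq's table, with 43 of 54 risen amino acid genes and 30 of 40 interferon-stimulated genes matched. Array dates are not given in the sources used here, so batches were not tested.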

Additional observations from a re-analysis of the deposited data

Results flagged for a closer look

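For each of the 200 genes named with a difference, the highest and the lowest array of either group were set against the other 3 arrays. In 26 of 400 groups of 4, 1 array stood apart by more than Dixon's 95% critical value for 4 values, and chance flags about 1 group in 20. On VEGF-up array 1, Postn read 10.099 against 9.883 to 9.9, Aldh1a2 read 7.685 against 7.518 to 7.532 and Egr1 read 12.077 against 12.182 to 12.201 on the other VEGF-up arrays. There, Wnt2 read 2.449 against 2.513 to 2.521 and Wnt5a read 9.425 against 9.233 to 9.236. On VEGF-up array 2, Tmem242 read 9.569 against 9.5 to 9.503 and Slc38a4 read 3.016 against 3.159 to 3.172 on the other VEGF-up arrays. On VEGF-up array 3, Aldh1l1 read 3.39 against 3.522 to 3.531, Cnn1 read 6.166 against 6.589 to 6.662 and Lmod1 read 5.719 against 5.453 to 5.483 on the other VEGF-up arrays. There, Selp read 4.481 against 4.239 to 4.279. On VEGF-up array 4, Glud1 read 10.045 against 10.007 to 10.013 on the other VEGF-up arrays. On VEGF-down array 1, Ly6e read 1.911 against 1.915, Angptl6 read 3.861 against 3.866 to 3.867 and Col4a1 read 9.797 against 9.666 to 9.682 on the other VEGF-down arrays. There, Inhbb read 5.859 against 6.355 to 6.387, Jam3 read 6.949 against 7.144 to 7.158 and Lpl read 11.25 against 11.311 to 11.32. S100a4 read 12.822 against 12.601 to 12.619, Setdb1 read 6.517 against 6.671 to 6.681 and Upk1b read 12.056 against 12.139 to 12.155 on that array too. On VEGF-down array 3, Tnni1 read 3.793 against 3.935 to 3.963, Csf1r read 6.644 against 6.535 to 6.553 and Trim30a read 7.937 against 8.062 to 8.083 on the other VEGF-down arrays. On VEGF-down array 4, Sfrp2 read 3.903 against 3.614 to 3.633 and Slc7a11 read 4.084 against 3.881 to 3.911 on the other VEGF-down arrays. The first VEGF-down array accounts for 9 of them. The gaps between the arrays concerned and the rest are at most 0.496 on the log2 scale, in Inhbb, and the listed genes kept their direction when any single array was left out. No explanation was tested.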

How the results depend on the processing

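Vegfa stayed higher in VEGF-up cells under all 16 alternatives, with a log2 difference between 0.894 (an offset of 16 added before log2) and 1.12 (spike-in scaling) and an adjusted p of at most 0.000407, the value with the replicate block. Leaving out single arrays gave differences between 0.959 and 1.07. The 40 genes with the largest differences kept direction and call in all 640 refits. These genes were picked for large differences that passed the test with arrays that did not overlap. The count of 5270 differing probe sets became 12249 with median centring and 11956 with spike-in scaling, because both move every probe set the same way by 0.04 and 0.12; 5525 and 5682 of those had a mean at background. Rises numbered 9697 and 10222 under these scalings and falls 2552 and 1734. Leaving out single arrays gave between 4822 and 5098 calls. An analysis with the replicate number as a block gave 4742 calls; residuals of same-numbered arrays correlated between -0.073 and 0.037, so the numbers were not taken as pairs, and not every array correlated best with its own number. Among the 200 genes named with a difference none changed sign. Calls lost were that of Phgdh with the replicate block (adjusted p = 0.0919) and without single arrays, with adjusted p between 0.0506 and 0.0665, those of Dnajb9 and Csf1r with spike-in scaling (adjusted p = 0.301 and 0.0967) and that of Cdkn1a with all 12 arrays in 1 fit (adjusted p = 0.0704); the cause was not tested. Of 104 counts over gene lists, 45 moved by more than 1.5 times with spike-in scaling and 32 with median centring, against 6 with quantile normalization. Genes at background have near-constant values after the authors' normalization, so their true differences cannot be read, and a set of 4 arrays per group limits the precision.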

Other observations

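Lists that the comparison above leaves out are given here by their counts. Of the leukocyte adhesion molecules 3 of 12 rose and 3 fell (8 and 2 centred, 8 and 2 spike-in), and of the acute phase, complement and innate recognition genes 4 of 21 rose and 8 fell (9 and 8 centred, 9 and 7 spike-in). Of the immediate-early transcription factors 10 of 21 rose and 4 fell. Among matrix genes, 6 of 16 rose and 5 fell (8 and 5 centred, 9 and 2 spike-in) of the collagen crosslinking and hydroxylating enzymes, 2 of 10 rose and 0 fell of the laminin chains and 2 of 17 rose and 6 fell (8 and 6 centred, 9 and 3 spike-in) of the serpins. Of the NRF2, glutathione and antioxidant genes 8 of 24 rose and 9 fell (12 and 9 centred, 12 and 6 spike-in), and of the lipid uptake and efflux genes 4 of 16 rose and 4 fell (8 and 4 centred, 9 and 4 spike-in). Among developmental genes, 2 of 20 rose and 4 fell (11 and 4 centred, 11 and 3 spike-in) of the Notch and arteriovenous list, 2 of 13 rose and 4 fell (8 and 4 centred, 7 and 2 spike-in) of the hedgehog pathway and 2 of 33 rose and 3 fell (23 and 3 centred, 23 and 3 spike-in) of the Hox clusters, where 21 were at background. Of the carbonic anhydrases, 9 of 15 were at background; 1 of 15 rose and 1 fell (10 and 1 centred, 10 and 1 spike-in), and Car6 was the member that rose. Of the ribosomal protein genes with a probe set in the matrix 4 of 8 rose and 1 fell, with a median difference of 0.09. Over all probe sets 15.1% rose and 15.4% fell, and no list was tested as a set.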
